A study of Mus musculus with 6 samples.

Results

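Ribosome biogenesis and RNA polymerase I (Pol I) genes were examined in BMBAs, basophils derived from mouse bone marrow, after PBS or IL-3. The 54 genes were taken by symbol from a list of small nucleolar ribonucleoprotein (snoRNP) proteins, nucleolar proteins, Pol I components and assembly factors of the small and large ribosomal subunits. All 54 were present once among the 37043 gene symbols of the count table, and all 54 had enough counts to be tested, with at least 47 counts in every library. Of the 54 genes, 36 were higher after IL-3, 0 were lower and 18 did not pass the test of edgeR. At an unadjusted p below 0.05, 41 were higher and 0 were lower, against 21.6% higher and 24.1% lower over all genes tested. With library totals in place of the scaling used here, 25 were called higher and 1 (Npm1) lower, against 10.2% higher and 30.2% lower over all genes tested.

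BMBAs were grown for 7 days from wild-type C57BL/6J bone marrow cells at a dose of 0.3 ng/mL, which the methods of the study give as IL-3, and were enriched with beads that bind CD49b. The enriched cells of both groups were then kept for 6 h, with PBS in 3 libraries and with 10 ng/mL IL-3 in the other 3 libraries. Poly(A) RNA was sequenced in bulk. The study describes 3 cultures per stimulation. Whether these came from separate mice is not stated, so the p-values measure the spread between cultures only. CD49b is also found on other cells, and no further sort is described for these cells.

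Ribosome production begins in the nucleolus, where Pol I copies the ribosomal DNA into a long precursor. snoRNPs guide the chemical modification and cleavage of this precursor while assembly factors join it, fold it and leave again, first on the small subunit and then on the large subunit. Growing cells need more of these factors than resting cells, and many of their genes are known targets of the transcription factor MYC, which binds the E-box sequence CACGTG.

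The libraries held 10537540 to 13999287 counts. Levels are given in CPM, the count of a gene relative to the library size scaled by TMM (trimmed mean of M values), and changes as log2 fold changes of IL-3 over PBS from the quasi-likelihood test of edgeR, with Benjamini-Hochberg adjusted p-values over the 16675 genes tested. Genes with an adjusted p below 0.05 are referred to as called. Over all genes tested, 18.0% were called higher and 20.2% were called lower, and the median log2 fold change was -0.0033.

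The basophil markers were high in both groups, with a summed level of 10250 to 11444 CPM in PBS and 15297 to 15494 CPM in IL-3, and 6 of 8 were higher and 1 (Fcer1a) lower. Markers of other cells that the enrichment could carry along were read as well. The macrophage markers, led by Lyz2, summed to 11819 to 12765 CPM in PBS and 6154 to 6776 CPM in IL-3, and 7 of 8 were lower and 1 (Adgre1) higher. Proliferation genes were lower in 10 of 10 cases, with sums of 590 to 667 CPM in PBS and 275 to 349 CPM in IL-3. Of 7 mast cell markers, 5 were higher, with sums of 874 to 977 CPM in PBS and 1481 to 1612 CPM in IL-3. Neutrophil markers gave 2 higher and 1 lower of 6 tested (122 to 158 CPM and 192 to 257 CPM), eosinophil markers 1 higher and 3 lower of 5 tested (155 to 173 CPM and 95.0 to 136 CPM) and erythroid markers 2 lower of 4 tested (100.0 to 219 CPM and 54.6 to 101.1 CPM). Of the NK cell markers, which summed to 6.46 to 8.24 CPM and 28.8 to 33.1 CPM, Nkg7 alone had enough counts to be tested and was higher, and Gzma had 0 counts in every library. Alas2, an erythroid marker, also had 0 counts throughout. In bulk RNA, fewer cells of a type and less RNA per cell cannot be told apart, and the part of these shifts in the results below was not tested. Mitochondrial genes made up 3.53% to 3.58% of the counts in PBS and 2.01% to 2.07% in IL-3.

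Most of the 54 genes rose, by small amounts. Their median log2 fold change was 0.48, against -0.0033 over all genes tested. Genes of at least 20 CPM had a median of 0.066, and 31.7% of these 6693 genes were called higher. The share of the 54 genes called higher was 66.7%. In 40 of 54 genes all IL-3 libraries lay above all PBS libraries, as did 23.8% of all genes tested. In 14 genes the groups overlapped, and in 0 genes did all IL-3 libraries lie below. Bysl and Heatr1 alone were called higher with more than a 2-fold change, a property of 3.90% of all genes tested. The 36 genes called higher had folds of 1.23 to 2.61, with a median of 1.51.

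**Figure D1:**
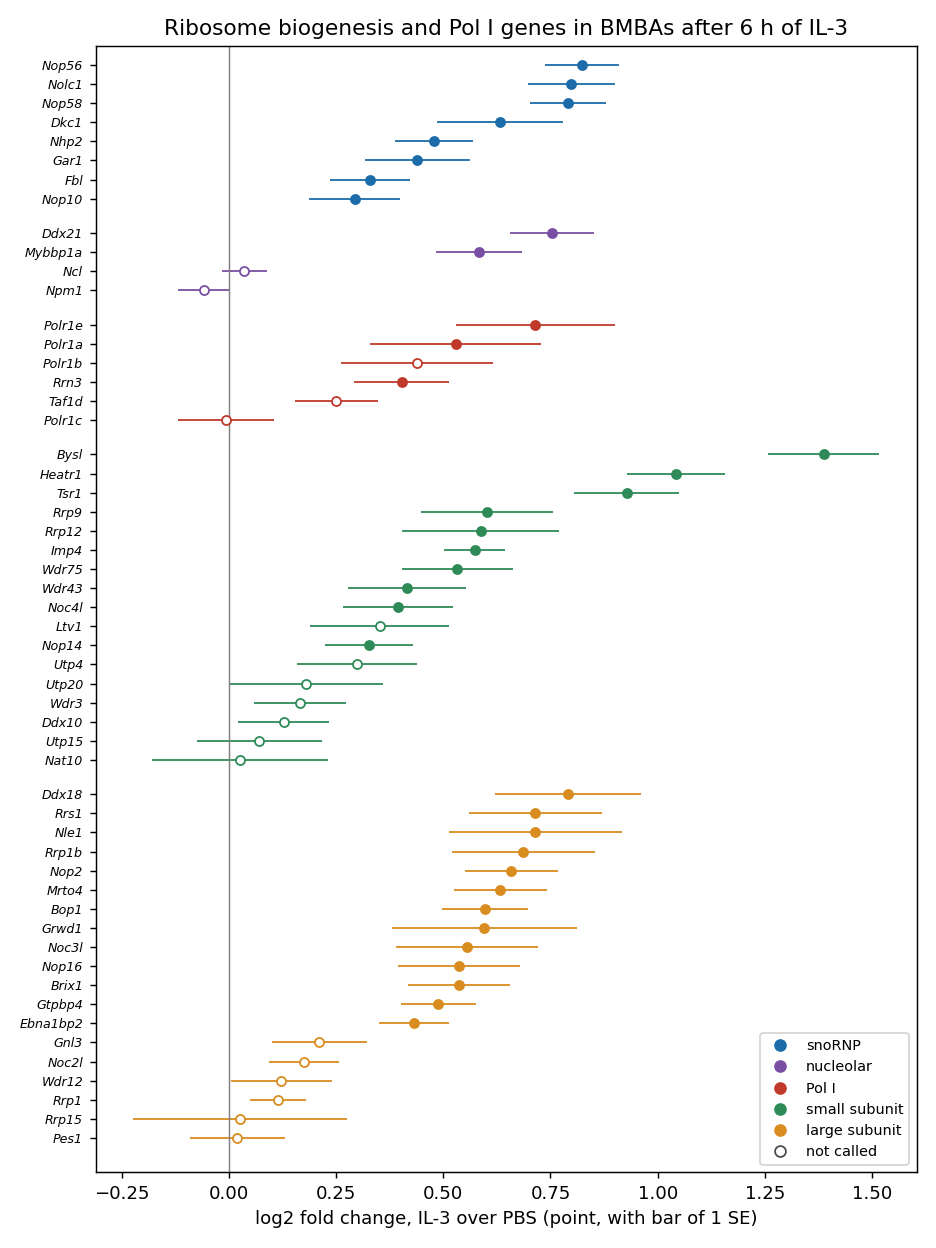
Log2 fold change of IL-3 over PBS (x axis) for the 54 genes, grouped by role, with bars of 1 SE, filled points for genes called at an adjusted p below 0.05 and open points for the rest. 52 of 54 points lie above 0, and Bysl at 1.39 lies farthest to the right.

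The summed level of the 54 genes was 1484, 1431 and 1451 CPM in PBS and 1841, 1930 and 1733 CPM in IL-3, a ratio of 1.26 between the group means. Ncl and Npm1 made up 30.7% of this sum in PBS and 24.3% in IL-3. Over the other 52 genes the ratio was 1.38. Replicate spread was small, with a median coefficient of variation of 10.6% in PBS and 8.86% in IL-3. The third IL-3 library was the lowest of its group in 37 of 54 genes and the second was the highest in 37 of 54. How many of all genes tested share this order was not counted, so it may be a trait of the libraries.

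**Figure D2:**
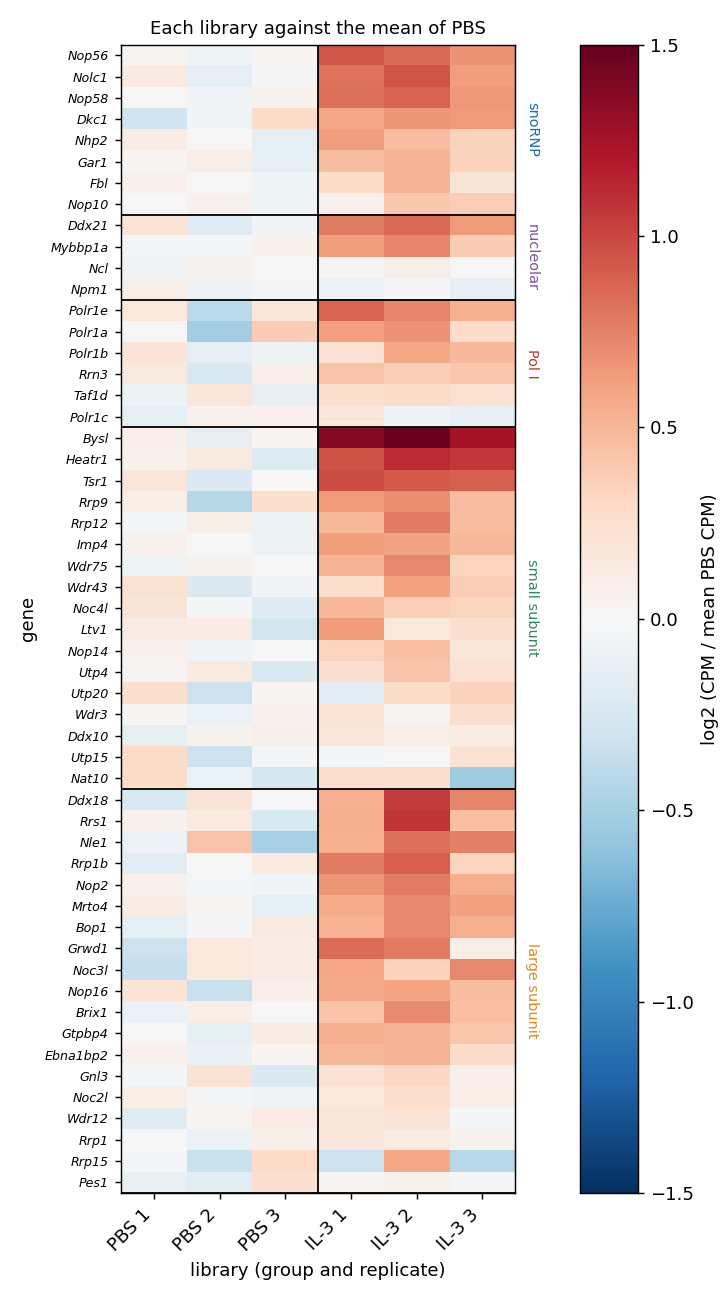
Log2 of the CPM in each library over the mean PBS CPM for each of the 54 genes (rows), with the PBS libraries left of the line and the IL-3 libraries right of it. Red in the right-hand columns covers most rows, while Ncl, Npm1, Polr1c, Pes1 and Rrp15 stay near white or change sign between libraries.

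Among the snoRNP genes, 8 of 8 were called higher and none had overlapping groups, with a median log2 fold change of 0.55. With library totals in place of TMM, Fbl (0.17, adjusted p = 0.187), Gar1 (0.28, adjusted p = 0.0935) and Nop10 (0.13, adjusted p = 0.360) lost the call. Nop56 and Nop58 encode the paired scaffold proteins of box C/D snoRNPs, which guide ribose methylation. Nop56 (chr2:130274430-130279313, plus strand of build GRCm38) was at 30.8, 28.8 and 30.5 CPM in PBS and 57.4, 54.3 and 48.01 CPM in IL-3. It rose by 0.82 on the log2 scale (SE 0.0865, edgeR adjusted p = 1.50e-06). For Nop58 (chr1:59684971-59719044, plus strand) the levels were 26.8, 26.1 and 27.8 CPM in PBS and 47.8, 49.8 and 42.3 CPM in IL-3, a log2 fold change of 0.79 (SE 0.0880, edgeR adjusted p = 2.77e-06). Both genes moved by nearly the same amount, and neither had an IL-3 library near the PBS range.

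Fbl encodes fibrillarin, the methyltransferase that works inside the same particle. Its levels were 36.1, 34.2 and 33.03 CPM in PBS and 41.7, 48.9 and 39.3 CPM in IL-3. The log2 fold change of Fbl was 0.33 (SE 0.0928, edgeR adjusted p = 0.0103), and without the second IL-3 library it was 0.23 with an adjusted p of 0.0885, which loses the call. The change of Fbl was below those of both scaffold genes, a difference that was not tested, and 19.7% of its 50-base words are shared with other genes.

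Dkc1, Gar1, Nhp2 and Nop10 encode the core proteins of box H/ACA snoRNPs, which guide pseudouridylation, and Dkc1 is the pseudouridine synthase. Dkc1 was measured at 8.18, 9.73 and 12.2 CPM in PBS and 15.01, 15.9 and 15.6 CPM in IL-3 (log2 fold change 0.63, SE 0.148, edgeR adjusted p = 0.00296). Gar1 went from 12.8, 13.3 and 11.5 CPM to 17.3, 17.8 and 15.98 CPM (log2 fold change 0.44, SE 0.123, edgeR adjusted p = 0.00982). For Nhp2 the values were 40.00, 37.4 and 33.9 CPM in PBS and 57.2, 51.05 and 47.2 CPM in IL-3 (log2 fold change 0.48, SE 0.0907, edgeR adjusted p = 0.000578). All 4 genes of this particle had every IL-3 library above every PBS library. Nop10 had the smallest change, from 24.5, 25.6 and 23.3 CPM to 25.7, 32.5 and 31.6 CPM (log2 fold change 0.29, SE 0.105, edgeR adjusted p = 0.0379). Its first IL-3 library lay just above the highest PBS library. The call on Nop10 was lost without the first (0.29), second (0.33) or the third (0.26) PBS library and without the second (0.23) or the third (0.26) IL-3 library, with adjusted p-values up to 0.172.

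Nolc1, a chaperone that escorts both kinds of snoRNP, was at 27.98, 23.2 and 25.2 CPM in PBS and 44.8, 48.9 and 39.4 CPM in IL-3. Its log2 fold change of 0.80 (SE 0.101, edgeR adjusted p = 1.13e-05) was close to those of Nop56 and Nop58.

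The genes of the 4 nucleolar proteins split evenly into called and not called. Ncl encodes nucleolin, which binds ribosomal DNA and precursor RNA, and was the most highly counted of the 54 genes at 248, 266 and 254 CPM in PBS and 260.0, 273 and 255 CPM in IL-3. Its log2 fold change was 0.04 (SE 0.0532, 95% interval -0.07 to 0.14, edgeR adjusted p = 0.635). Npm1, which encodes the nucleolar chaperone nucleophosmin, was at 202, 181 and 188 CPM in PBS and 179.8, 193 and 175 CPM in IL-3, with a log2 fold change of -0.06 (SE 0.0606, 95% interval -0.18 to 0.06, edgeR adjusted p = 0.493). Per kilobase of the longest coding transcript, Npm1 stood at 117 CPM in PBS and Ncl at 31.2 CPM. These transcripts have 1633 bases for Npm1 and 8202 bases for Ncl, so the gap depends on the transcript chosen. Which transcripts the cells made was not tested. The groups overlapped in both genes, and their intervals are narrow at these high counts. Of the 50-base words of Npm1, 24.3% are shared with other genes, chiefly Gm9118. With library totals in place of TMM, Npm1 was called lower (log2 fold change -0.22, edgeR adjusted p = 0.0111) and Ncl was at -0.13 (edgeR adjusted p = 0.1002).

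Ddx21 and Mybbp1a belong to the same class and passed the test. Ddx21, an RNA helicase of the nucleolus, was at 37.8, 28.9 and 31.9 CPM in PBS and 56.3, 59.1 and 51.1 CPM in IL-3 and rose by 0.75 on the log2 scale (SE 0.0978, edgeR adjusted p = 1.46e-05). Mybbp1a, a nucleolar Myb-binding protein, rose from 24.5, 24.1 and 25.5 CPM to 38.1, 40.9 and 32.2 CPM, a log2 fold change of 0.58 (SE 0.101, edgeR adjusted p = 0.000246). Neither gene had overlapping groups.

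**Figure D3:**
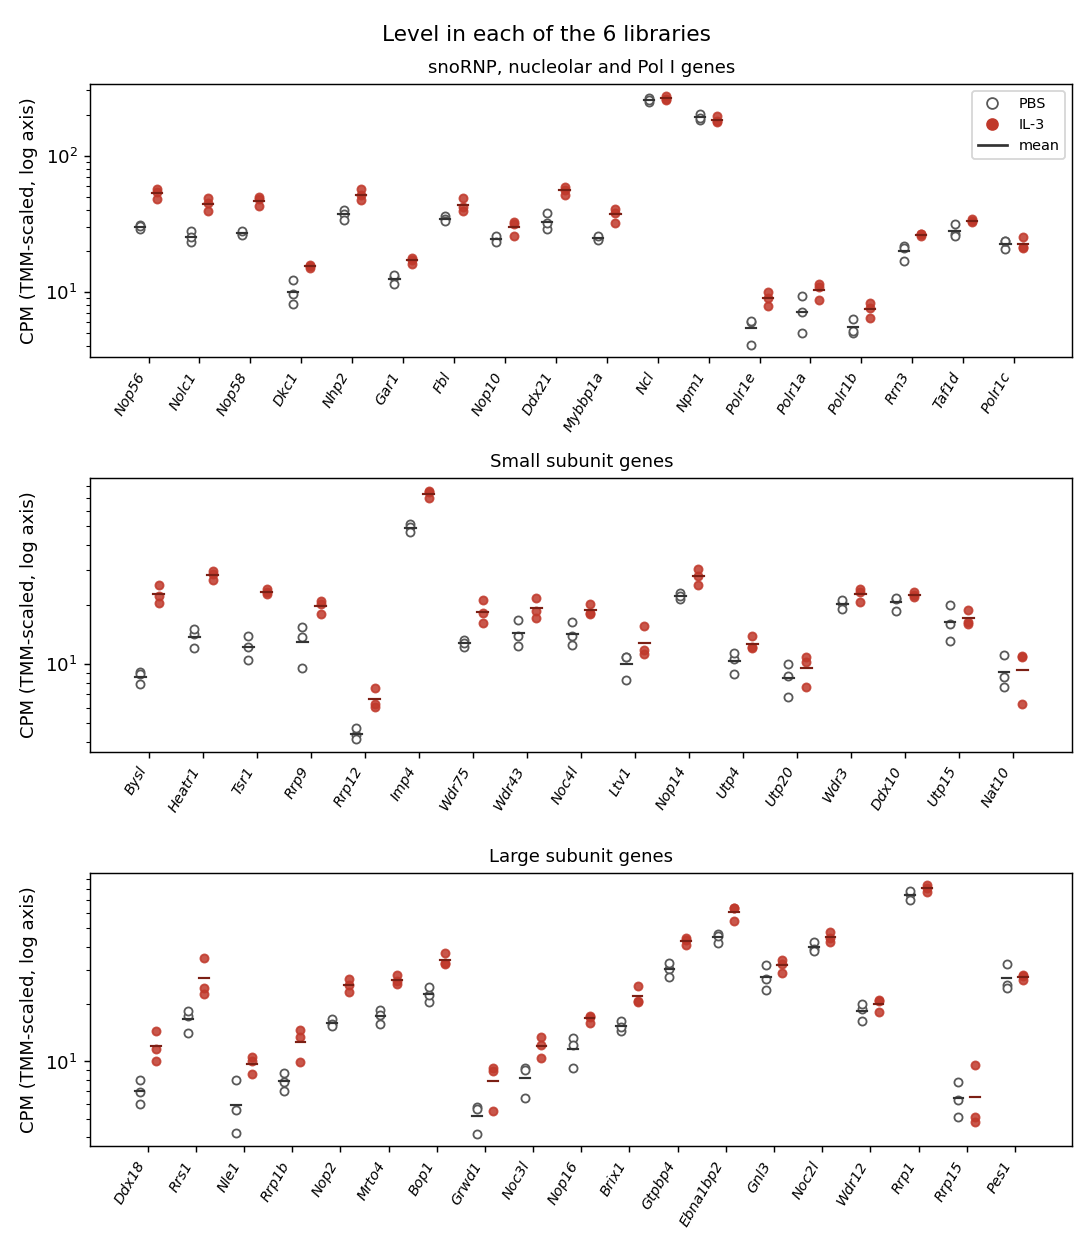
CPM after TMM scaling (log axis) of each of the 54 genes in the 3 PBS libraries (open points) and the 3 IL-3 libraries (red points), with a line at each mean. The red points clear the open points in 40 genes, and Ncl and Npm1 are the highest pair with mixed points.

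Of 6 Pol I genes 3 were called higher, and the class had a median log2 fold change of 0.42. Polr1e alone kept its call with library totals in place of TMM. Polr1a encodes the largest subunit of the enzyme, with 7.12, 4.998 and 9.34 CPM in PBS and 10.96, 11.4 and 8.69 CPM in IL-3. Its change on the log2 scale was 0.53 (SE 0.199, edgeR adjusted p = 0.0472), but the third IL-3 library lay below the highest PBS library. The call was lost without the first (0.52) or second (0.33) PBS library and without the first (0.49) or second (0.45) IL-3 library, with adjusted p-values up to 0.201. It was also lost with the replicate number as a block (adjusted p = 0.0698), under iterated TMM (adjusted p = 0.0577), in DESeq2 (adjusted p = 0.0596) and with library totals (log2 fold change 0.37, adjusted p = 0.172).

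Polr1b, which encodes the other large catalytic subunit, was at 6.30, 4.998 and 5.20 CPM in PBS and 6.42, 8.24 and 7.68 CPM in IL-3. It did not pass the test (log2 fold change 0.44, SE 0.177, 95% interval 0.09 to 0.79, edgeR adjusted p = 0.0628), although its groups did not overlap. It passed without the first PBS library (0.55) or the first IL-3 library (0.53). Both catalytic subunits had few counts and wide intervals. Polr1e, a subunit particular to Pol I, rose from 6.05, 4.12 and 6.17 CPM to 9.97, 9.08 and 7.91 CPM (log2 fold change 0.71, SE 0.185, edgeR adjusted p = 0.00607). Polr1c, a subunit that Pol I shares with Pol III, was at 20.6, 23.7 and 23.6 CPM in PBS and 25.5, 21.4 and 20.9 CPM in IL-3 (log2 fold change -0.01, 95% interval -0.23 to 0.21, edgeR adjusted p = 0.971). The interval of the shared subunit reaches neither the rise of Polr1e nor that of Polr1a, though the differences between these genes were not tested.

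Rrn3 encodes the factor that makes Pol I competent to start, and was at 21.8, 16.9 and 20.9 CPM in PBS and 26.8, 25.6 and 26.5 CPM in IL-3. It rose by 0.40 on the log2 scale (SE 0.111, edgeR adjusted p = 0.00899), and with library totals it was at 0.24 and was not called (adjusted p = 0.108). Taf1d, a subunit of the promoter selectivity factor of Pol I, had 26.6, 31.7 and 25.7 CPM in PBS and 32.98, 34.1 and 32.8 CPM in IL-3. Its log2 fold change of 0.25 (SE 0.0969, edgeR adjusted p = 0.0531) missed the threshold, and it passed without the second PBS library (0.35) and under limma-voom (0.26, adjusted p = 0.0485). All IL-3 libraries of both factors lay above all PBS libraries.

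Of 17 small subunit genes 10 were called higher, and the class had a median log2 change of 0.39. With library totals in place of TMM, Nop14, Wdr43, Noc4l and Rrp12 lost the call. Bysl encodes bystin, a factor of small subunit assembly, and showed the largest change of the 54 genes. Bysl (chr17:47599331-47611492, minus strand) was at 9.08, 7.89 and 8.90 CPM in PBS and 22.2, 25.1 and 20.5 CPM in IL-3, a log2 fold change of 1.39 (SE 0.130, edgeR adjusted p = 3.89e-07). Every IL-3 library was more than 2-fold above every PBS library. The exons of Bysl overlap those of Ccnd3 on the opposite strand, and 8.20% of the 50-base words of Bysl are shared with it. Ccnd3, which encodes a D-type cyclin, had 2263 to 2431 counts in PBS and 5273 to 6997 counts in IL-3, with a log2 fold change of 1.40 (edgeR adjusted p = 6.97e-12). Reads were mapped to the transcripts in 1 orientation according to the software statement supplied with the study, but the sources used here do not give whether the libraries keep the strand. How many of the 90 to 301 counts of Bysl came from the overlap cannot be told apart in a table of counts per gene.

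Heatr1, a large scaffold protein of the processome that assembles on the nascent precursor, followed Bysl in size. Its levels were 14.2, 15.1 and 11.98 CPM in PBS and 26.7, 29.8 and 28.6 CPM in IL-3, a log2 fold change of 1.04 (SE 0.115, edgeR adjusted p = 2.46e-06). Heatr1 (chr13:12395027-12440289, plus strand) shares 1.37% of its 50-base words with other genes. Tsr1, needed for late steps of small subunit maturation, rose from 13.8, 10.4 and 12.2 CPM to 23.9, 23.1 and 22.6 CPM (log2 fold change 0.93, SE 0.123, edgeR adjusted p = 1.83e-05). Of the 50-base words of Tsr1, 29.1% are shared with other genes, chiefly Srr on the opposite strand, and Srr itself had a log2 fold change of -0.0032 (edgeR adjusted p = 0.991). In all 3 genes the IL-3 libraries stood far above the PBS libraries relative to the spread within each group.

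Imp4, a protein of the processome, was at 51.6, 49.5 and 46.6 CPM in PBS and 75.8, 74.5 and 69.7 CPM in IL-3 and rose by 0.57 on the log2 scale (SE 0.0702, edgeR adjusted p = 7.85e-06). Wdr75, a WD-repeat protein of the same particle, rose from 12.2, 13.2 and 12.8 CPM to 18.2, 21.1 and 16.1 CPM (log2 fold change 0.53, SE 0.130, edgeR adjusted p = 0.00399). The groups of both genes were separate. The other small subunit genes called higher were Rrp9 (0.60), Rrp12 (0.59), Wdr43 (0.42), Noc4l (0.39) and Nop14 (0.33), given as log2 fold changes.

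Utp15 and Nat10 had the largest adjusted p-values of the small subunit genes. Utp15, also a processome protein, was at 19.8, 13.1 and 15.9 CPM in PBS and 15.99, 16.3 and 18.8 CPM in IL-3 (log2 fold change 0.07, 95% interval -0.21 to 0.36, edgeR adjusted p = 0.747). Nat10, the enzyme that acetylates small subunit RNA, was at 11.04, 8.59 and 7.66 CPM in PBS and 10.9, 10.9 and 6.28 CPM in IL-3 (log2 fold change 0.03, 95% interval -0.38 to 0.43, edgeR adjusted p = 0.938). Both genes overlapped between groups, and the interval of Nat10 still allows changes as large as the median rise of its class. Ltv1 (0.35), Utp4 (0.30), Utp20 (0.18), Wdr3 (0.17) and Ddx10 (0.13) were the remaining small subunit genes that were not called.

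The large subunit genes numbered 19, of which 13 were called higher, and their median log2 change was 0.54. Noc3l and Grwd1 lost the call with library totals in place of TMM, and Grwd1, whose groups overlapped, also lost it in DESeq2, in limma-voom and with the replicate number as a block. Nop2, an RNA methyltransferase of large subunit assembly, was at 16.6, 15.7 and 15.4 CPM in PBS and 25.2, 27.1 and 23.2 CPM in IL-3. It rose by 0.66 on the log2 scale (SE 0.108, edgeR adjusted p = 0.000157). Mrto4, an assembly factor related to the ribosomal stalk protein, rose from 18.7, 17.5 and 15.7 CPM to 25.5, 28.5 and 26.5 CPM (log2 fold change 0.63, SE 0.108, edgeR adjusted p = 0.000213). Both genes had narrow groups that lay well apart. Gtpbp4, a nucleolar GTPase, was at 30.5, 27.8 and 32.9 CPM in PBS and 44.3, 43.1 and 40.7 CPM in IL-3 (log2 fold change 0.49, SE 0.0878, edgeR adjusted p = 0.000352). Ebna1bp2, an early assembly factor, went from 46.7, 41.9 and 45.7 CPM to 63.5, 63.6 and 54.4 CPM (log2 fold change 0.43, SE 0.0818, edgeR adjusted p = 0.000568). These more highly counted genes moved by less but with small errors.

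Bop1, Pes1 and Wdr12 encode the proteins of the PeBoW complex, which is needed to process the large subunit RNA. Bop1 was at 20.6, 22.4 and 24.7 CPM in PBS and 32.4, 37.1 and 32.7 CPM in IL-3 and was called higher (log2 fold change 0.60, SE 0.101, edgeR adjusted p = 0.000202). Pes1 was at 25.3, 24.2 and 32.3 CPM in PBS and 28.04, 28.2 and 26.7 CPM in IL-3 (log2 fold change 0.02, 95% interval -0.20 to 0.24, edgeR adjusted p = 0.910). Wdr12 had a log2 fold change of 0.12 (95% interval -0.11 to 0.35, edgeR adjusted p = 0.458). The intervals of Pes1 and Wdr12 lie below that of Bop1, which runs 0.40 to 0.79, but the differences between these genes were not tested. Of the 50-base words of Pes1, 23.3% are shared with other genes, chiefly Gm5910, which had 6 to 17 counts a library.

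Rrp15, a nucleolar factor of large subunit assembly, had the largest adjusted p-value of the 19 genes. Its levels were 6.30, 5.09 and 7.84 CPM in PBS and 5.13, 9.58 and 4.81 CPM in IL-3 (log2 fold change 0.03, 95% interval -0.46 to 0.51, edgeR adjusted p = 0.949). The second IL-3 library was the highest of all 6 and the other IL-3 libraries were among the lowest. The other large subunit genes called higher were Ddx18 (0.79), Rrs1 (0.71), Nle1 (0.71), Rrp1b (0.69), Grwd1 (0.60), Noc3l (0.56), Nop16 (0.54) and Brix1 (0.54), as log2 fold changes. Ddx18 shares 55.9% of its 50-base words with other genes, chiefly Gm16433, which had 11 to 37 counts a library and was itself called higher (log2 fold change 0.88, edgeR adjusted p = 0.0358). Gnl3 (0.21), Noc2l (0.18), Wdr12 and Rrp1 (0.11) were not called, though Gnl3 passed without the second PBS library (0.33). Among these, Rrp1 was the most highly counted at 75.1, 70.2 and 78.3 CPM in PBS and 83.7, 80.9 and 77.6 CPM in IL-3.

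In the 54 genes the calls followed the separation of the libraries closely. Of the 36 genes called, 34 had separate groups, the exceptions being Polr1a and Grwd1. Polr1b, Taf1d, Utp4, Ddx10, Ltv1 and Noc2l had separate groups but were not called. At an adjusted p below 0.01, 26 of the 54 genes were called higher, against 13.0% higher and 14.3% lower over all genes tested. When each library was left out in turn, 29 to 34 of the 54 genes were called higher and 0 were called lower. The genes that kept the call in all 6 of these fits numbered 27. The 9 that lost it at least once were Fbl, Nop10, Polr1a, Nop14, Wdr43, Noc4l, Rrp12, Noc3l and Grwd1. Over those fits the log2 fold change ran from 0.26 to 0.40 for Nop14, from 0.31 to 0.54 for Wdr43, from 0.31 to 0.51 for Noc4l, from 0.47 to 0.65 for Rrp12, from 0.41 to 0.65 for Noc3l and from 0.46 to 0.81 for Grwd1. Nop14 lost the call without the second PBS library or the first or second IL-3 library, Wdr43 without the second or the third PBS library or the second IL-3 library, and Noc4l without the second or the third PBS library or the first IL-3 library. Rrp12 lost it without the third PBS library or the second IL-3 library, Noc3l without the first PBS library or the third IL-3 library, and Grwd1 without the first or the third PBS library or the first or second IL-3 library. Among the genes with under 5% of their 50-base words shared with any other gene, 29 of 41 were called higher. The other 13 genes, for which the split of reads between similar or overlapping genes is uncertain, were Ddx18, Tsr1, Npm1, Pes1, Fbl, Noc2l, Nop56, Wdr3, Mrto4, Taf1d, Bysl, Rrs1 and Wdr12.

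Level and change were weakly related. Over the 54 genes the log2 fold change and the log2 mean CPM had a Pearson correlation of -0.23 and a Spearman correlation of -0.15, with every point drawn from the same 6 libraries. The most highly counted genes, Ncl, Npm1 and Rrp1, were among those not called.

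**Figure D4:**
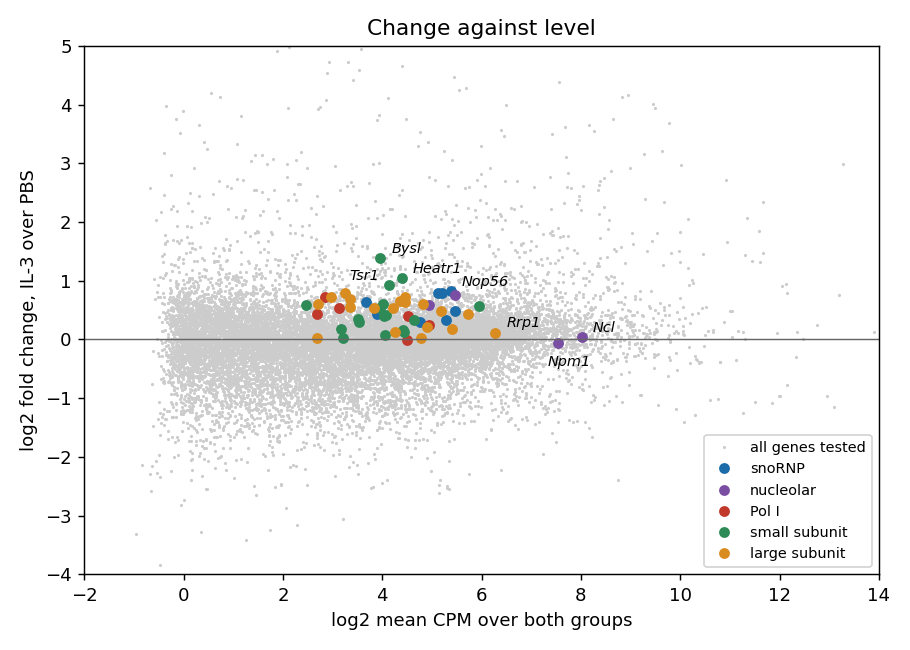
Log2 fold change of IL-3 over PBS (y axis) against log2 mean CPM over both groups (x axis) for all genes tested (grey) and for the 54 genes coloured by role. The 54 genes lie mostly above 0 between the middle and the upper part of the range of levels, and Ncl and Npm1 lie at the right edge of the coloured points near 0. Genes beyond the axes are not drawn.

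Other genes of the pathway were read from a list of 118 symbols of Pol I, snoRNP, small subunit and large subunit factors. Of these, 111 were in the table and all 111 were tested. The other 7 are alternative names of genes on the list. Of the 111 genes, 49 (44.1%) were called higher, 2 (1.80%) were called lower and 60 were not called, with a median log2 fold change of 0.27. With library totals in place of TMM, 18 of the 111 were called higher and 7 lower, beside the 10.2% and 30.2% of all genes under that scaling. By role, the genes called higher were 19 of 40 for the small subunit (median 0.33), 23 of 45 for the large subunit (median 0.32), 5 of 14 for Pol I and its partners (median 0.17) and 2 of 12 for snoRNPs (median 0.10).

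Rpf2, a factor that brings ribosomal RNA into the large subunit, had the largest rise among these genes, from 4.01, 4.73 and 3.88 CPM in PBS to 8.39, 8.74 and 6.75 CPM in IL-3 (log2 fold change 0.92, SE 0.184, edgeR adjusted p = 0.000923). Pwp2, a processome protein, went from 3.19, 4.21 and 2.995 CPM to 5.43, 6.995 and 5.58 CPM (log2 fold change 0.79, SE 0.211, edgeR adjusted p = 0.00707). Both of these have few counts. The genes called lower were Pih1d1, a component of the R2TP chaperone that assembles snoRNPs, and Nop53, a late large subunit factor. Pih1d1 fell from 54.4, 56.9 and 54.97 CPM to 48.3, 44.7 and 40.1 CPM (log2 fold change -0.32, SE 0.0801, edgeR adjusted p = 0.00443). Nop53 fell from 71.3, 81.6 and 81.04 CPM to 68.3, 66.2 and 69.7 CPM (log2 fold change -0.20, SE 0.0691, edgeR adjusted p = 0.0356). The falls of Pih1d1 and Nop53 were smaller than the rises of Rpf2 and Pwp2, though the fall of Pih1d1 was larger than some called rises, such as Polr1d (0.16). In Pih1d1 and Nop53 all IL-3 libraries lay below all PBS libraries.

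**Figure D5:**
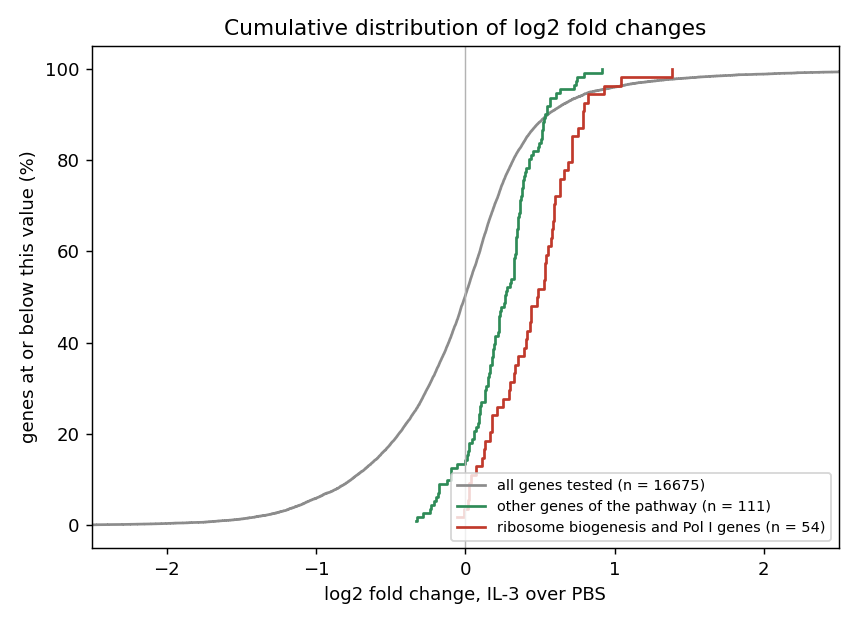
Cumulative share (y axis, percent) of genes at or below each log2 fold change of IL-3 over PBS (x axis) for all 16675 genes tested, the 111 other genes of the pathway and the 54 genes. The 54 genes lie farthest to the right, with a median of 0.48 against 0.27 for the other genes of the pathway, and genes beyond the x axis are not drawn.

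Myc, which encodes the transcription factor MYC, was at 3.35, 3.51 and 3.96 CPM in PBS and 23.5, 26.8 and 18.7 CPM in IL-3. Its log2 fold change was 2.67 (SE 0.169, edgeR adjusted p = 3.50e-09). Within the IL-3 group the third library was the lowest for Myc and the second was the highest. The share of all genes with this order was not counted. Whether the level of Myc bears on the 54 genes was not tested.

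The promoters of the 54 genes were searched for CACGTG, which reads the same on both strands and so needs 1 search only. RefSeq (build GRCm38.p6) gave a promoter of 250 bases before to 50 bases after the start for 49 of the 54 genes, and Fbl, Npm1, Rrp12, Rrs1 and Bop1 had no entry. The motif was present in 12 of 49 genes, or 24.5% (95% exact interval 13.3% to 38.9%). Over promoters of the same length it was present in 11.3% of the 10841 genes tested that had an entry and in 8.09% of all 27025 genes. Genes called higher and genes not called had nearly the same share, at 8 of 32 (25.0%) and 4 of 17 (23.5%). Among the other genes of the pathway the share was 16 of 90 (17.8%). Median GC content was 59.3% in the 49 promoters and 59.7% over the genes tested. A match is a description of the sequence and shows no binding.

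Sites of 30 bases are shown for Imp4, Nop2, Rrn3, Tsr1 and Mybbp1a, which were called higher, and for Pes1 and Utp4, which were not, to show that the same letters occur in both. The capitals mark the motif. All are given 5′ to 3′ on the strand of the gene in build GRCm38.p6. Counted with the start base as 0, the motif began at -121 in Imp4, at -60 in Nop2, at -215 and -48 in Rrn3, at 24 in Tsr1, at 40 in Mybbp1a, at 2 in Pes1 and at 15 in Utp4.
Imp4, chr1:34439696-34439725, plus strand: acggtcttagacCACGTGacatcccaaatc
Nop2, chr6:125131811-125131840, plus strand: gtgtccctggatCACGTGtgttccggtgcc
Rrn3, chr16:13780472-13780501, plus strand: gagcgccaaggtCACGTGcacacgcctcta
Rrn3, chr16:13780639-13780668, plus strand: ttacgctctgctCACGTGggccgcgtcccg
Tsr1, chr11:74898092-74898121, plus strand: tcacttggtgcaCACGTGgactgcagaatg
Mybbp1a, chr11:72441347-72441376, plus strand: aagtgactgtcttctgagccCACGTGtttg
Pes1, chr11:3963965-3963994, plus strand: ccctaggcagggCACGTGcgggaggaagta
Utp4, chr8:106893643-106893672, plus strand: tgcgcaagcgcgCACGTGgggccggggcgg

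Rrn3 was the only one of the 49 genes with more than 1 site. Bysl, with the largest rise, and Ncl, with almost no change at the highest count, held no CACGTG in their windows. The stretch shown for Bysl holds CACGCG, a variant that was searched as an alternative. That shown for Ncl holds neither CACGCG nor CATGTG on either strand. The 250 bases before their starts are shown to set the promoter of the most changed gene beside that of the most highly counted one. GC content was 58.4% for Bysl and 69.6% for Ncl.
Bysl, chr17:47611493-47611742, minus strand: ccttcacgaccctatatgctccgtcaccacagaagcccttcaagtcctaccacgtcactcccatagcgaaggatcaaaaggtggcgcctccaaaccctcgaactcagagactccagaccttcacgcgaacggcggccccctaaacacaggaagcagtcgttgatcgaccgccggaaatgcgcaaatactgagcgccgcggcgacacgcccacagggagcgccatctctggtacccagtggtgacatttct
Ncl, chr1:86359456-86359705, minus strand: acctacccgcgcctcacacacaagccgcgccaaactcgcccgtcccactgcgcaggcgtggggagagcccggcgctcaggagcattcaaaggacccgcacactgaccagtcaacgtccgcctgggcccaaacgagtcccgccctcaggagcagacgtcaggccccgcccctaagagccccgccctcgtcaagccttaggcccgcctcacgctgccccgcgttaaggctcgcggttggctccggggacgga

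The 54 genes lie on 18 chromosomes. Annotated snoRNA genes, 29 in all, lie inside 8 of them, namely Taf1d, Nop56, Nop58, Ncl, Gnl3, Wdr43, Tsr1 and Dkc1. These small RNAs lack long poly(A) tails, and the 27 of them in the table had 71 counts over all 6 libraries, too few to compare. The ribosomal RNA gene CT010467.1 took 13.4% to 15.1% of counts in PBS and 14.4% to 16.5% in IL-3. As poly(A) capture was used, this share does not measure ribosomal RNA output, and the ranges overlapped.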

How the data were processed

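Bulk RNA-seq was carried out on 3 PBS and 3 IL-3 libraries of BMBAs. According to the methods of the study and the software statement supplied with it, the authors trimmed reads with Cutadapt (version 3.4 in the submitters' processing notes), mapped them with Bowtie2 to mouse reference RNA in 1 orientation, counted them for each gene and added up rows of the same symbol, and the deposited values are raw counts. The methods name build GRCm38 while the submitters' processing notes name GRCm39, so coordinates are those of GENCODE M21 on GRCm38, used for position, length and shared sequence only, and 96.1% of symbols matched it. The labels name column extraction of RNA while the methods name direct lysis for BMBAs. No molecular identifiers are described, so PCR copies were counted as reads.

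Counts were tested with edgeR 4.0.16 in R 4.3.3 (filterByExpr, TMM, quasi-likelihood F test with group as the only term, two-sided), since the study used TCC, which builds on TMM and edgeR. Adjusted p is the Benjamini-Hochberg value. The SE was derived from the F value. A count of 0 allows up to 3 counts, or 0.233 to 0.296 CPM depending on the library, which covers counting error only. Of the 37043 symbols, 4866 had no count, and 0 per-sample columns were left unused. No pair of libraries agreed within sampling noise (lowest chi-square per degree of freedom 2.94), and replicates correlated at 0.985 to 0.988 within groups and 0.952 to 0.957 between groups. Sharing is the share of 50-base words of all transcripts of a gene that occur in transcripts of another gene on either strand.

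Values in every library are given for all snoRNP, nucleolar and Pol I genes and, among small and large subunit genes, for the 5 with the smallest and the 2 with the largest adjusted p, and for the 2 called genes with the largest rise and the 2 with the largest fall among other genes of the pathway. Rrp1 and Myc are given outside this rule. The 54 genes, the lists and the tests were chosen with earlier results of these data known. Alternatives were DESeq2 1.42.0, limma-voom (limma 3.58.1), other scalings and filters, a test against a fold of 1.5, an adjusted p below 0.01, a replicate block and leaving out each library. The subset with little shared sequence was chosen after seeing the data.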

Additional observations from a re-analysis of the deposited data

How the results depend on the processing

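Of the 54 genes, 36 were called higher and 0 lower, and all 36 kept a positive log2 fold change under the 16 alternatives. With library totals in place of TMM the median of all genes shifted by -0.16, the median of the 54 genes was 0.32, 25 were called higher and 1 (Npm1, -0.22) was called lower, and counts were 1698 higher and 5030 lower over all genes and 18 higher and 7 lower among the other genes of the pathway. The 11 genes that lost the call with library totals were Fbl, Gar1, Nop10, Polr1a, Rrn3, Nop14, Wdr43, Noc4l, Rrp12, Noc3l and Grwd1. Against a fold of 1.5 the calls were 5 of the 54 genes (Bysl, Heatr1, Tsr1, Nop56 and Nop58), 0 higher and 0 lower among the other genes of the pathway, and 709 higher and 883 lower over all genes. At an adjusted p below 0.01, 26 of the 54 genes, 31 higher and 1 lower of the other genes, and 2163 higher and 2384 lower over all genes were called. No filter on low counts and the DESeq2 test each gave 1 lower among the other genes. Of the 36 genes called, Nop10, Polr1a, Rrp12 and Grwd1 lost the call in DESeq2. Under limma-voom Grwd1 lost the call and Taf1d gained it, and under iterated TMM Nop10 and Polr1a lost it.

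Leaving out each library gave 29 to 34 higher and 0 lower of the 54 genes with a median of 0.42 to 0.52, 38 to 43 higher and 1 to 3 lower among the other genes, and 2482 to 2787 higher and 2883 to 3108 lower over all genes. Genes that were not called changed sign as follows. With library totals the log2 fold change was -0.13 for Ncl, -0.092 for Utp15, -0.13 for Nat10, -0.14 for Pes1, -0.14 for Rrp15, -0.048 for Rrp1, -0.040 for Wdr12 and -0.035 for Ddx10. Pes1 was at -0.0037 under iterated TMM, Polr1c at 0.0048 without a filter, and Nat10 at -0.018 and Rrp15 at -0.024 under limma-voom. With 1 library left out, Utp15 ran from -0.064 to 0.24, Nat10 from -0.11 to 0.26, Pes1 from -0.059 to 0.16, Rrp15 from -0.37 to 0.22 and Polr1c from -0.10 to 0.050. The cause was not tested beyond the shift given for library totals.

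No pairing by replicate number was seen. Over the genes tested, deviations from the group means correlated at -0.0087, -0.016 and -0.022 between libraries of the same number. Many genes have few counts, so these values cannot tell whether cultures of the same number share a mouse. With the replicate number as a block, 34 of the 54 genes were called higher and 0 lower, with Polr1a and Grwd1 losing the call, and Rrp15 was at -0.013. The same block gave 44 higher and 2 lower among the other genes of the pathway and 2842 higher and 3247 lower over all genes. The share of promoters with a motif was 63.3% when CACGCG and CATGTG on both strands were searched too, against 35.9% of genes tested, and 22.4% in the window from 100 bases before the start, against 7.204%. The intervals of Polr1a, Polr1b, Rrp15 and Nat10 are wide, and how far depth or the spread between libraries sets their width was not tested.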

Other observations

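Count ratios between genes that work together were taken within each library, which needs no scaling between libraries. The pairs were chosen after their values were seen, so the ratios are a description with no test. Bop1 to Pes1 was 0.816, 0.924 and 0.763 in PBS and 1.15, 1.32 and 1.22 in IL-3. Bop1 to Wdr12 was 1.18 to 1.27 in PBS and 1.55 to 1.79 in IL-3, so the counts of the PeBoW genes shifted toward Bop1 in every IL-3 library. In the box C/D particle, Nop56 to Fbl was 0.841 to 0.923 in PBS and 1.11 to 1.38 in IL-3, and Nop58 to Fbl was 0.744 to 0.843 and 1.02 to 1.15. Polr1e to Polr1c was 0.174 to 0.294 in PBS and 0.379 to 0.424 in IL-3. Ddx21 to Ncl was 0.109 to 0.152 in PBS and 0.2002 to 0.217 in IL-3. None of these ranges overlapped between groups. The ratios compare raw counts of genes of different length, so their size has no meaning as a ratio of transcripts.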
